A study of Mus musculus with 6 samples.

Results

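The subject is a set of 3045 chromatin regions, each with a peak in 2 of 2 touch dome libraries and 2 of 2 hair follicle (HF) libraries and no peak in either interfollicular epidermis (IFE) library, out of 75738 regions in all (4.02%). The regions were made by merging every overlapping peak of 6 ATAC-seq peak lists from mouse back skin, and the set was chosen by the presence and absence of those peaks. Every count of these regions by place, gene or gene list is therefore a description and carries no test. ATAC-seq uses a transposase to cut and tag accessible DNA, and a peak marks a stretch with more cuts than its surroundings. All mice were of the C57BL/6 background and carried TNC-CREER, a tamoxifen-inducible Cre driven by the gene of tenascin-C, together with a tdTomato reporter. Tamoxifen was injected into all of them on days 51 and 52 after birth, at a dose of 100 µg per g, and skin was taken on day 60. Touch dome cells were sorted as positive for EPCAM, SCA1, α6-integrin and tdTomato, and IFE cells as positive for the first 3 and negative for tdTomato. The HF gate kept EPCAM and α6-integrin but took cells negative for SCA1 and tdTomato. Each of the 3 populations had 2 libraries of 50000 sorted cells. The reporter marks cells in which Tnc was active at the time of tamoxifen, so peaks at Tnc are not independent of the sort. The labels do not state if replicate libraries are from separate animals, so p-values below measure only the spread between these libraries, which may be technical.

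The skin surface between hairs is covered by the IFE, a stratified epithelium renewed from basal keratinocytes. The hair follicle is a separate appendage whose bulge holds slowly cycling stem cells and whose outer root sheath is continuous with the IFE. Touch domes are small patches of columnar keratinocytes beside guard hair follicles. They house the Merkel cells that sense light touch, are contacted by sensory nerves and are known for active Hedgehog signalling. Chromatin that is open at a distance from promoters often marks enhancers, which tend to be used in fewer cell types than promoters are.

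Only 81 of the 3045 regions touched an annotated promoter window, and 5 of those promoters are printed here because each stands for a kind of gene in the set. Cd34, the surface antigen of bulge stem cells, represents the follicle stem cell genes. Ror2, a receptor for Wnt5a, represents Wnt signalling and had 5 regions of the set. Col1a2, a type I collagen chain of fibroblasts, had no region outside the set. Mme, a membrane metallopeptidase, and Slc22a22, a solute carrier of the organic anion family, had promoters that lay wholly within the stretch covered by peaks of all 4 libraries. Each sequence is the 250 bases before the annotated start, 5′ to 3′ on the gene's strand, from RefSeq on GRCm38.p6, the assembly behind the mm10 coordinates of the peaks. Capitals mark matches to the transcription factor motifs listed further on.
Cd34: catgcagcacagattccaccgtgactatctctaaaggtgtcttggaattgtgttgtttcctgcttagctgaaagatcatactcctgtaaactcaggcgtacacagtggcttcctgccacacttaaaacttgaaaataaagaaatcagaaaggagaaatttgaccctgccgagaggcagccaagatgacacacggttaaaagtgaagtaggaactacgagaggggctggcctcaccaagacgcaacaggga
Ror2: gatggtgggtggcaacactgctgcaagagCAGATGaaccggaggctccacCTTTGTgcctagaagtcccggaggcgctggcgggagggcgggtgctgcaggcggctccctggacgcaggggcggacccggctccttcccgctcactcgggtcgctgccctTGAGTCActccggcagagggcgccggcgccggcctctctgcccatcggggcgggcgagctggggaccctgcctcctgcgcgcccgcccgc
Col1a2: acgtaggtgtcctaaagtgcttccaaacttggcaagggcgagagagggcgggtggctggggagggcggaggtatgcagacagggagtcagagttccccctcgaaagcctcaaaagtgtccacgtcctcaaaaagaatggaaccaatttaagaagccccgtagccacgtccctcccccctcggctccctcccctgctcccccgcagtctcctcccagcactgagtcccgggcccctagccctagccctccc
Mme: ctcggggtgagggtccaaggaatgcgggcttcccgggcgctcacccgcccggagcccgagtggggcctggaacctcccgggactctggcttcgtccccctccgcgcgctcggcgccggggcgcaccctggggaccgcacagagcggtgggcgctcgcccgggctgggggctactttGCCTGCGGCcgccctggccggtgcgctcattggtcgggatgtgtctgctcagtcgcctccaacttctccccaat
Slc22a22: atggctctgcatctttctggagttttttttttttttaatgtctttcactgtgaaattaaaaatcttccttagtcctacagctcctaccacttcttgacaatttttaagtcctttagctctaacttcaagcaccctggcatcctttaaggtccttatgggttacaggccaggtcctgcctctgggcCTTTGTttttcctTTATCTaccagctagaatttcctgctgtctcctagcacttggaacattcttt

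The Cd34 window lies at chr1:194938571-194938820 on the plus strand, and 242 of its bases fall in a region of the set that runs to 194940068. Only 9 of its bases fall in the stretch covered by peaks of all 4 libraries. The region covered 659 and 1046 bp in the touch dome libraries (replicates 1 and 2) and 1490 and 1295 bp in the HF libraries. The Ror2 window lies at chr13:53286125-53286374 on the minus strand and carries an E-box (CAGATG) match whose first base is at position -221 from the start, a SOX match at -200 and an AP-1 match at -90. Its region covered 566 and 698 bp in touch dome and 809 and 1091 bp in HF. The 118 bases of the Ror2 window nearest the start lie in the stretch covered by peaks of all 4 libraries. They hold the AP-1 match, and the E-box and SOX matches lie outside that stretch. At both promoters the 2 HF libraries lay above the 2 touch dome libraries. The Col1a2 window, at chr6:4505368-4505617 on the plus strand, and the Cd34 window hold no match to any motif searched. The Mme window, at chr3:63295622-63295871 on the plus strand, has an AP-2 match at -74. The Slc22a22 window, at chr15:57477626-57477875 on the minus strand, has a SOX match at -65 and a GATA match at -52. Slc22a22 had the longest stretch shared by the 4 libraries at any coding promoter in the set, 1499 bp, with 1499 and 1777 bp covered in touch dome and 1796 and 1748 bp in HF. Its 4 libraries overlapped, unlike those of Cd34 and Ror2.

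The set ranked between the other 2 patterns shared by 2 populations. Regions open in touch dome and IFE but not HF numbered 4941, and regions open in IFE and HF but not touch dome numbered 244. HF alone had 5249 regions, touch dome alone 855 and IFE alone 925, and 34250 were open in all 6 libraries. The remaining 26229 regions had replicates that differed. Library size bears on these counts: touch dome replicate 1 had the fewest peaks, 50153, against 59250 in touch dome replicate 2, 54844 and 57131 in HF and 52219 and 51124 in IFE. The peak lists hold no read counts, so depth is unknown, and closed means here that no peak was called. Leaving out touch dome replicate 1 raised the set to 5722 regions, and leaving out any other single library gave 3150 to 3649. Using only the wider 50% of each library's peaks gave 1146 regions.

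**Figure D1:**
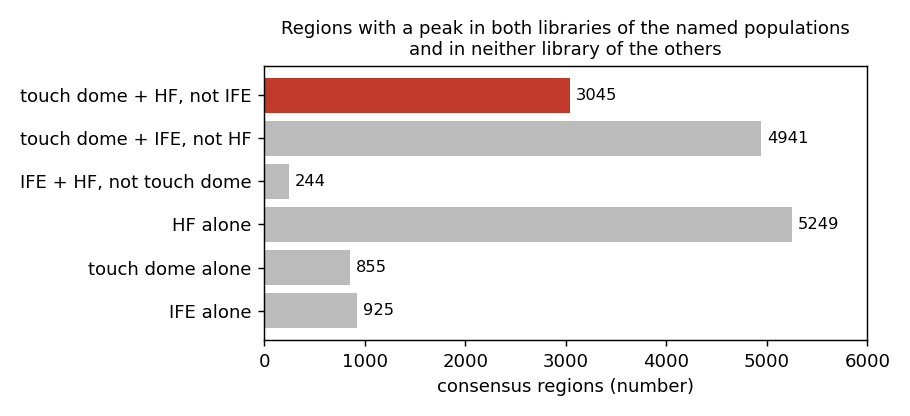
Number of consensus regions (horizontal axis) for each pattern in which the 2 libraries of every population had the same state, with the set described here in red. The 3045 regions shared by touch dome and HF stand below the 4941 shared by touch dome and IFE and far above the 244 shared by IFE and HF.

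The edges of the set were uneven. A further 3051 regions without an IFE peak had peaks in 3 of the 4 libraries, and in 2677 of them the missing peak was that of touch dome replicate 1. The missing peak was that of touch dome replicate 2 in 178, HF replicate 1 in 86 and HF replicate 2 in 110. In the 2677 regions, the peaks that were called covered a median of 456 bp in touch dome replicate 2 and 711 and 686 bp in HF. On the other edge, 1187 regions had peaks in all 4 libraries and in 1 IFE library, 583 in IFE replicate 1 and 604 in IFE replicate 2. Those IFE peaks were short, with medians of 442 and 451 bp. Inside the set, the nearest IFE peak lay a median of 15126 bp away (interquartile range 5635 to 46649, smallest 109), and only 77 regions (2.53%) had one within 1 kb.

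The regions of the set lay away from gene ends. Within 1 kb of either end of a protein-coding gene were 99 of them (3.25%, exact 95% binomial interval 2.65 to 3.94), against 17.8% of every region and 32.5% of those open in all 6 libraries. The share was 5.10% among regions shared by touch dome and IFE, 3.87% among those of HF alone and 3.04% among those of touch dome alone. An annotated coding start fell in 39 regions of the set (1.28%, interval 0.912 to 1.75), against 12.7% of every region. Starts fell in 1.46% of regions shared by touch dome and IFE, 1.26% of those of HF alone and 0.585% of those of touch dome alone. Inside genes but away from their ends were 1291 (42.4%), and 667 (21.9%) were intergenic within 50 kb of a gene. The other 988 (32.4%, interval 30.8 to 34.1) lay more than 50 kb from any protein-coding gene, against 17.1% of every region, 19.9% of those shared by touch dome and IFE and 25.6% of those of HF alone. Among regions of touch dome alone it was 29.0% (interval 26.0 to 32.2). These intervals cover counting error only. Median width was 1030 bp (interquartile range 833 to 1271), between 883 bp for the regions shared by touch dome and IFE and 1293 bp for those open in all libraries.

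Regions open in all 6 libraries were the nearest neighbours of the set, at a median of 23.0 kb with 67.2% of the set within 50 kb of one, and they are the most numerous kind. The median distance to the nearest other region of the set was 91.5 kb, and 38.4% had one within 50 kb. Of the regions open in all 6 libraries, 15.6% had a region of the set within 50 kb. The nearest region of HF alone was a median of 73.2 kb away, with 41.0% within 50 kb. Regions shared by touch dome and IFE were farther, at a median of 200 kb with 18.1% within 50 kb, although the genome holds more of them than of the set. From regions shared by touch dome and IFE, the set lay 317 kb away and their own kind 55.8 kb. Joined over gaps of up to 20 kb, 745 regions (24.5%) fell into groups, of which 266 were pairs, 44 were triples and 17 held 4 or more.

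The largest group held 7 regions of the set in 63.7 kb at chr8:103519799-103583505, and every consensus region in that stretch belonged to the set. Its nearest protein-coding gene, the vascular cadherin gene Cdh5, was 518 kb away and had no region of its own within 50 kb. A group of 6 spanned 74.1 kb at chr1:186432978-186507043, 116 kb from Tgfb2, a growth factor of the TGF-beta family, and 6 of the 9 consensus regions there belonged to the set. Groups of 5 in which all 5 regions belonged to the set lay at chr2:74014456-74037341 and chr9:103843802-103874831. Their nearest genes were Atp5g3, a subunit of the mitochondrial ATP synthase, at 102 kb and Tmem108 at 81.9 kb. Of the 17 groups with 4 or more regions, 9 had no protein-coding gene within 50 kb.

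Within 50 kb of a protein-coding gene lay 2057 regions of the set, 3.28% of the 62783 regions that could be placed in this way. They fell at 1447 genes, 9.31% of the 15549 genes with any region. Most of these genes, 1085, had a single region of the set, 362 had 2 or more and 25 had 5 or more. Genes with a region of the set had more regions altogether (median 7) than the others (median 2). Of their remaining regions, 10.4% were open in HF alone and 5.51% in touch dome and IFE. At genes with no region of the set these shares were 5.36% and 6.80%.

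Touch dome genes were led by Tnc and Cadm1. Of 107 regions at 10 genes known to mark touch dome keratinocytes, 16 (15%) belonged to the set, spread over 6 genes. Tnc, the matrix glycoprotein tenascin-C that drove the reporter, had 5 of its 17 regions in the set. The others were 6 open in all libraries, 3 shared by touch dome and IFE and 3 with mixed replicates, and none was open in HF alone. Centred on chromosome 4 at 96.9, 88.2, 32.6 and 16.6 kb downstream of the annotated start and upstream of it at -6.84 kb, they flanked the gene span of 87.2 kb or lay inside it. The upstream region, chr4:64052827-64054885, covered 558 and 1888 bp in touch dome and 1937 and 1442 bp in HF. The touch dome replicates differed there by more than the populations did. At the region 32.6 kb downstream, chr4:64013735-64014859, touch dome covered 577 and 651 bp and HF 1125 and 963 bp, and the groups did not overlap.

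Cadm1, an immunoglobulin adhesion molecule, had 6 of 37 regions in the set, 4 inside its 332 kb span and 2 beyond its upper end. Its 9 regions open in all libraries stood mostly in the lower part of the locus, as the map of peaks shows. The widest shared stretch at Cadm1 was 1069 bp at chr9:47837809-47839188, inside the gene, with 1069 and 1297 bp covered in touch dome and 1365 and 1210 bp in HF. Here the ranges overlapped. Hhip, the secreted antagonist that binds Hedgehog ligands, had 2 of 7 regions in the set and none open in all libraries. Ptch1, the Hedgehog receptor and itself a pathway target, had 1 of 5, Sostdc1, a secreted inhibitor of BMP and Wnt signals, 1 of 7, and the stem cell receptor gene Lgr6 1 of 15. The keratin gene Krt17, the surface marker gene Cd200, the adhesion gene Ncam1 and the Hedgehog effector gene Gli1 had none.

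**Figure D2:**
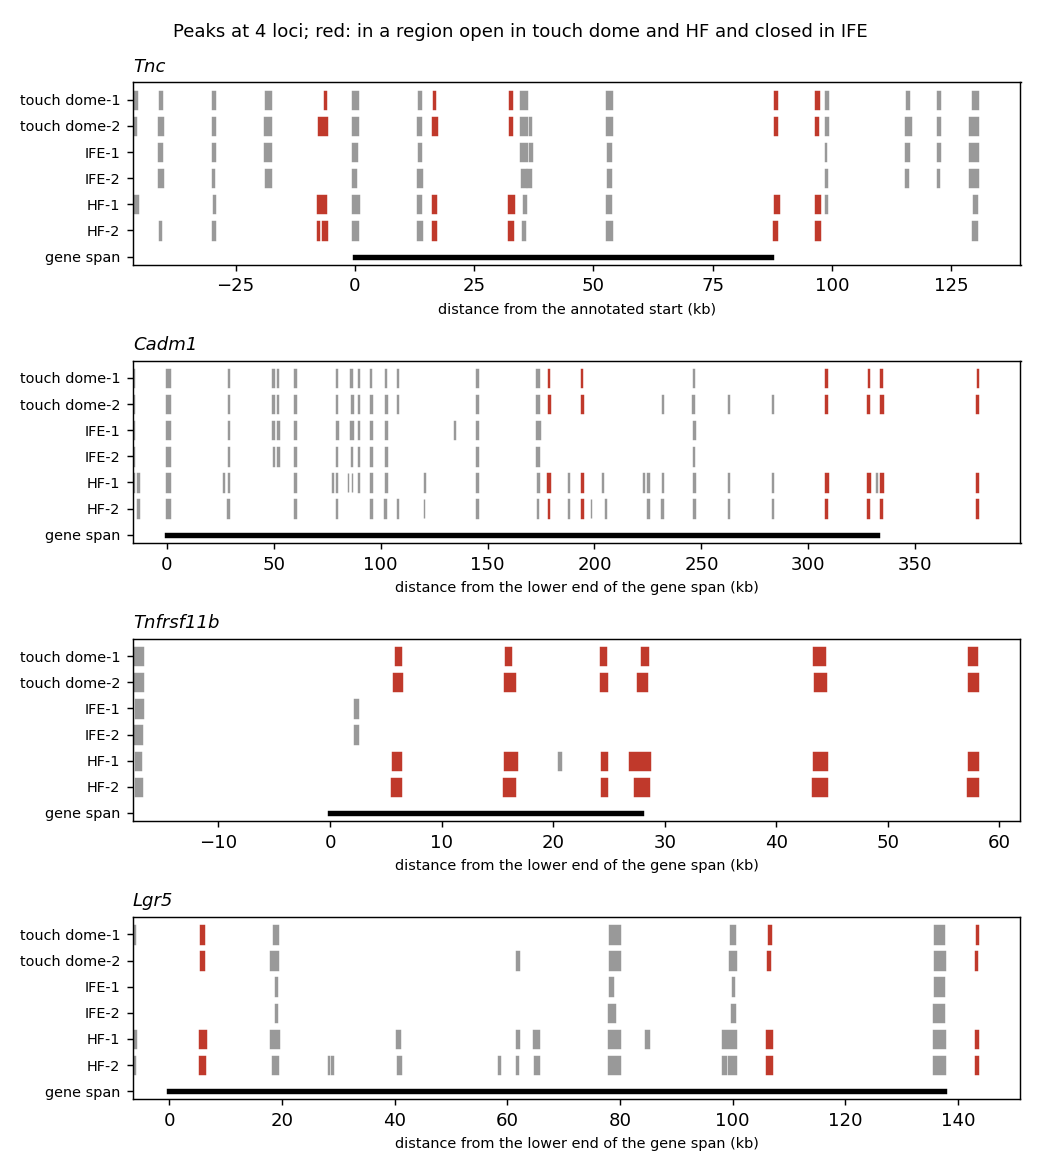
Peaks of the 6 libraries (rows) at 4 genes, by distance in kb from the annotated start (Tnc) or from the lower end of the gene span (Cadm1, Tnfrsf11b, Lgr5), with regions of the set in red and the gene span in black. The touch dome and HF rows share red peaks in 5 regions at Tnc, 6 at Cadm1, 6 at Tnfrsf11b and 3 at Lgr5, and the IFE rows hold grey peaks alone.

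Hedgehog signalling runs from a ligand through the receptor Ptch1 and the co-receptors Boc, Cdon and Gas1 to Gli transcription factors. Of 129 regions at 15 genes of this pathway, 11 (8.53%) belonged to the set. Among them, the co-receptor genes Boc and Cdon had 3 of 13 and 1 of 9, the antagonist gene Hhip 2 of 7, the receptor gene Ptch1 1 of 5 and the effector gene Gli2 3 of 27. The ligand genes Shh and Dhh, the transducer gene Smo and the genes Gli1, Gli3, Gas1, Sufu, Disp1 and Kif7 had none, and Ihh had no region in any library. At Gli2 the largest shared stretch was 1304 bp inside the gene, in the region chr1:118954559-118956304. This region covered 1478 and 1685 bp in touch dome and 1545 and 1349 bp in HF, so the 2 populations were alike in range. Without touch dome replicate 1 the pathway had 21 regions in the set.

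The list for follicle stem cells and outer root sheath held 36 regions of the set among 449 (8.02%), at 20 of 28 genes. Among transcription factors, Bnc2, a zinc finger protein, had 5 of 45, Nfib, a regulator of bulge stem cells, 3 of 52, and the homeobox genes Barx2 and Lhx2 2 of 19 and 2 of 15. Runx1, Nfatc1, Tcf7l1, Tcf7l2, Foxc1 and Foxp1 had 1 each. Among surface and secreted proteins, Postn, the matrix protein periostin, had 4 of 10, Lgr5, an R-spondin receptor of cycling follicle stem cells, 3 of 15, and Cd34, Bmp6 and the matricellular Ccn2 2 each. Krt15, Sox9, Tbx1, Nfix, Krt24, Dkk3, Fgf5 and Cd200 had none. Krt15 and Sox9 were nonetheless open in IFE, with 2 and 5 regions in all 6 libraries. The count was 22 with a gene window of 10 kb and 67 without touch dome replicate 1. Of the 28 genes, 16 are also on other lists described here.

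The 3 Lgr5 regions lay inside the gene at chr10:115455550-115456746 and chr10:115556200-115557335 and beyond its upper end at chr10:115593302-115593924. Peaks at the first covered 736 and 846 bp in touch dome and 1168 and 1083 bp in HF. The second covered 604 and 592 bp in touch dome and 1044 and 1130 bp in HF. In each of the 3 the HF libraries were both wider than the touch dome libraries, although none of the differences passed the test described below (limma, Benjamini-Hochberg adjusted p from 0.0589 to 0.199). Postn showed the same order at 3 of its 4 regions, with the remaining one, chr3:54434400-54435402, at 457 and 848 bp in touch dome and 959 and 767 bp in HF.

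**Figure D3:**
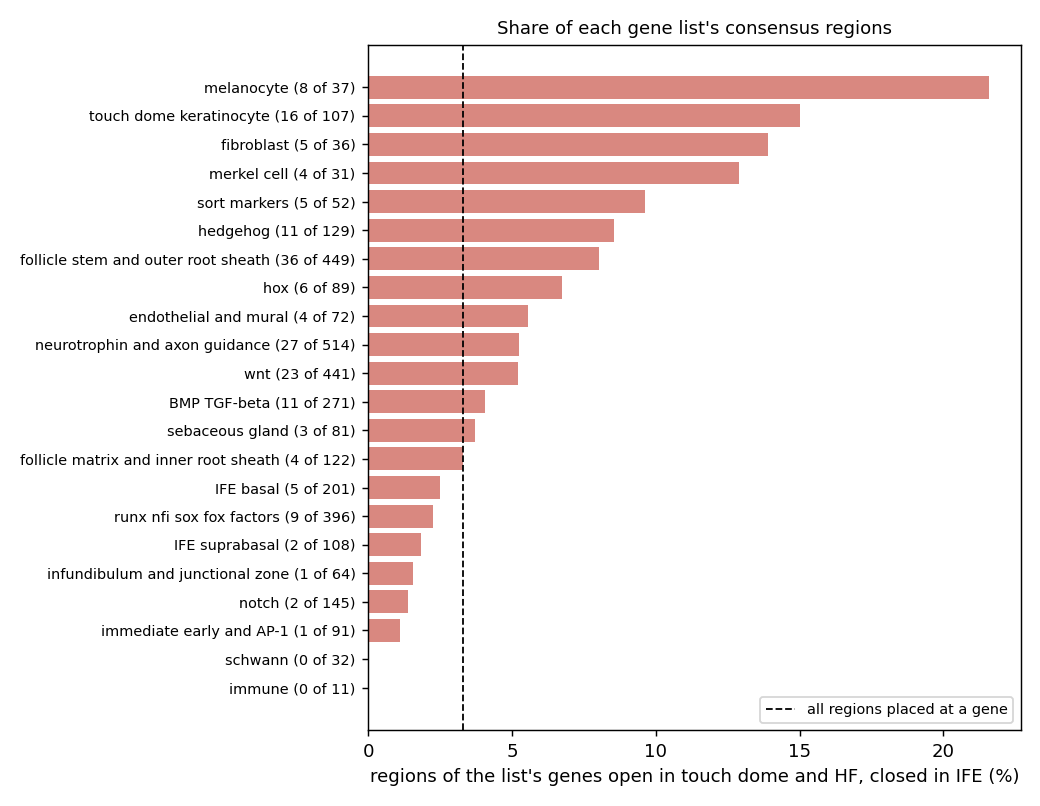
Share of each gene list's consensus regions that belong to the set (horizontal axis, percent; numbers of regions in brackets), with the share over all regions placed at a gene, 3.28%, as a dashed line. Melanocyte, touch dome, fibroblast and Merkel cell lists have the highest shares on few regions, and the follicle stem cell list has the most regions of the set, 36.

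Wnt pathway genes held 23 of 441 regions (5.22%), at 16 of 49 genes. Among receptors, Ror2 had 5 of 27 and the R-spondin receptor genes Lgr5, Lgr4 and Lgr6 had 3 of 15, 2 of 19 and 1 of 15. Ror1, Fzd4 and Lrp6 had 1 of 30, 1 of 6 and 1 of 12. The other Frizzled genes of the list and Lrp4, Lrp5 and Ryk had none. Of the Wnt ligands only Wnt5b and Wnt11 had 1 each. The secreted inhibitors Wif1 and Sfrp2 had 1 each, while Dkk2, Dkk3, Sfrp1 and Notum had none. The nuclear factors Lef1, Tcf7l1 and Tcf7l2 and Ctnnb1, the gene of β-catenin, had 1 each, as did Rspo1. The count was 47 without touch dome replicate 1 and 15 when the same number of the widest peaks was taken per library. BMP and TGF-beta genes held 11 of 271 (4.06%), near the 3.28% of all placed regions. Of these, 2 were at the ligand gene Bmp6 and 2 at Tgfbr3, a TGF-beta co-receptor. The BMP inhibitors Fst and Sostdc1, the inhibitory Smads Smad6 and Smad7, and Bmp2, Id2 and Ltbp1 had 1 each. The inhibitor genes Nog, Chrd, Grem1 and Bambi had none. Notch pathway genes held 2 of 145 (1.38%), both at co-activators, Maml2 and Maml3.

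Genes of nerve growth and axon guidance held 27 of 514 regions (5.25%), at 17 of 45 genes. The ephrin ligand gene Efna5 had 4 of 35 and the semaphorin receptor gene Plxna2 3 of 26. Ntrk2, the receptor for brain-derived neurotrophic factor, had 2 of 24, the semaphorin co-receptor gene Nrp1 2 of 7 and Gfra1, a co-receptor for glial cell line-derived neurotrophic factor, 2 of 21. At the Ntrk2 region chr13:58929936-58930978, peaks covered 582 and 759 bp in touch dome and 1016 and 1004 bp in HF. Merkel cell genes held 4 of 31 (12.9%), 2 at the touch channel gene Piezo2 and 2 at Rab3c, a vesicle GTPase gene. The Merkel cell fate genes Atoh1, Sox2, Isl1, Insm1 and Gfi1 and the Merkel keratins Krt8, Krt18 and Krt20 had none. Of the 31 Merkel cell regions, 17 and 23 had a peak in touch dome, 20 and 16 in IFE and 23 and 28 in HF. At the Piezo2 region chr18:63042428-63043282, peaks covered 764 and 652 bp in touch dome and 515 and 595 bp in HF. Here both touch dome libraries were above both HF libraries, a rare order in the set (limma, Benjamini-Hochberg adjusted p = 0.404).

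Hox genes, which set position along the body axis, held 6 of 89 regions (6.74%), 1 each at Hoxb3, Hoxc13, Hoxd1, Hoxd3, Hoxd9 and Hoxd13. The regions at Hoxd1 and Hoxd9 held the annotated starts of those genes. At Hoxd9, chr2:74697437-74699020, peaks covered 482 and 1190 bp in touch dome and 1501 and 1523 bp in HF. The Runx, Nfi, Sox and Fox factors held 9 of 396 (2.27%), below the 3.28% of all placed regions. IFE basal genes had 5 of 201 (2.49%), near that background, of which 3 were at Dst, the hemidesmosome linker gene, and 1 each at Trp63 and Lama3. Of the Dst regions, chr1:33907080-33908507 also holds both annotated starts of Bend6 and was placed at Dst by the nearest-span rule. Suprabasal genes had 2 of 108 (1.85%), at Klf4 and the lipid transporter gene Abca12. The matrix and inner root sheath list had 4 of 122 (3.28%), the sebaceous gland list 3 of 81 (3.70%), the infundibulum list 1 of 64 (1.56%) and the immediate early list 1 of 91 (1.10%). Of the sort markers, only Tnc had regions in the set. Ly6a, the gene of SCA1, Epcam and Itga6 had none.

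All 3 gates required EPCAM and α6-integrin, and how far they kept out other cell types was not tested. Markers of other cell types were represented unevenly. Melanocyte genes held 8 of 37 regions (21.6%), at 3 of the 9 genes with any region. Mitf, the master regulator of the lineage, had 5 of 20, the pigment genes Oca2 and Dct had 2 of 3 and 1 of 2, while Tyr, Kit and Pmel had no region in any library and Sox10, Tyrp1 and Mlana had none in the set. Of the Mitf regions, 3 lay together beyond the upper end of the gene between 98048689 and 98064286 on chromosome 6. Of the 37 melanocyte regions, touch dome had a peak at 26 and 31, IFE at 20 and 19 and HF at 28 and 29. The count of the set at this list was 3 with a gene window of 10 kb. Fibroblast genes held 5 of 36 (13.9%), at 4 of the 10 genes with any region. These 5 were both regions of Col1a2 and 1 each at Col1a1, Pdgfra and Fbn1. Dpt, Col3a1, Dcn, Twist2, Prrx1 and Vim had regions but none in the set, and Pdgfrb and Lum had no region in any library. Of the 36 fibroblast regions, 21 and 26 had a peak in touch dome, 17 and 15 in IFE and 26 and 27 in HF. Endothelial and mural genes held 4 of 72 (5.56%), 3 at the transcription factor gene Erg and 1 at Emcn, with no region of any kind at Cdh5, Kdr and Rgs5. Pecam1, Vwf, Flt1, Tek, Cldn5, Acta2 and Myh11 had regions but none in the set. Of the 72 regions, 39 and 49 had a peak in touch dome, 48 and 51 in IFE and 50 and 54 in HF. Immune genes (0 of 11 regions) and Schwann cell genes (0 of 32) had none. The part that such cells have in the set was not tested, and fewer cells of a type and less open chromatin per cell cannot be told apart in sorted bulk libraries.

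The genes with the most regions of the set were mainly long loci outside these lists. Atp8a2, a phospholipid flippase gene of 439 kb, had 9 of 26, followed with 7 each by Dpyd (of 23), Dennd1a (of 25), Hmcn1 (of 34) and Lrmda (of 55). Dpyd encodes the enzyme that breaks down pyrimidine bases, Dennd1a a Rab exchange factor and Hmcn1 the matrix protein hemicentin. Those with 6 were Anks1b, Ralgps1, Aig1, the potassium channel gene Kcnma1, the dynamin gene Dnm3, Macrod2, Cadm1 and Tnfrsf11b. A further 12 genes had 5 each: Kirrel, Tnc, Plcl1, Mitf, Chst11, Naaladl2, Ror2, Tenm3, Setbp1, App, Palld and Bnc2.

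Tnfrsf11b was the exception in length. This gene of osteoprotegerin, the decoy receptor for RANK ligand, spans 27.9 kb and had 6 of 9 regions (66.7%) in the set, the highest share among the 25 genes. The 6 stood within 52.6 kb on chromosome 15, from 54256090 to 54308725, in which 6 of 7 consensus regions belonged to the set. At chr15:54293820-54295176 peaks covered 1057 and 1108 bp in touch dome and 1289 and 1357 bp in HF. At chr15:54307747-54308725 they covered 823 and 937 bp in touch dome and 932 and 922 bp in HF. The libraries were separate by population at the first of these and overlapped at the second. Macrod2, with a span of 1998 kb, had 6 of 68.

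The width of the peaks was not used by the rule and could be compared between touch dome and HF. The median number of bases covered by peaks at a region of the set was 561 and 754 for touch dome (replicates 1 and 2) and 968 and 900 for HF. Both touch dome libraries were below both HF libraries. At regions open in all 6 libraries the medians were 1030 and 1154 bp in touch dome and 1094 and 1054 bp in HF, and they overlapped. At the regions shared by touch dome and IFE, touch dome covered 595 and 730 bp and IFE 774 and 690 bp, which also overlapped. Relative to the regions open everywhere, the library medians of log2 extent at the set were -0.75 ± 0.19 in touch dome and -0.20 ± 0.037 in HF (SD, n = 2 each). HF was higher by 0.54 (1.46-fold), and the exact permutation test, two-sided, gave p = 0.333, the smallest that 2 against 2 libraries allow. Touch dome replicate 1, the library with the fewest peaks, had the lowest value, and the part of library size in the difference was not tested. Without it the difference was 0.41, and without touch dome replicate 2 it was 0.67.

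**Figure D4:**
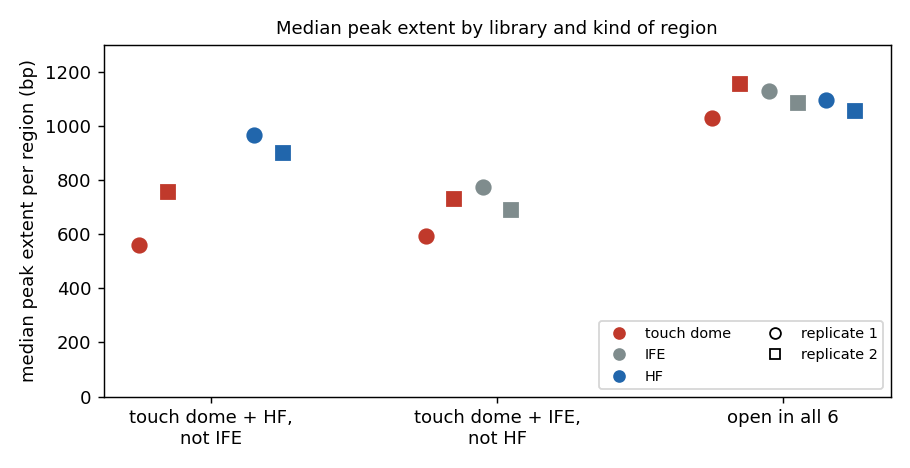
Median bases covered by peaks per region (vertical axis, bp) in each library, for the set, for regions shared by touch dome and IFE and for regions open in all 6 libraries, where each point is 1 library. At the set the touch dome points, 561 and 754 bp, lie below the HF points, 968 and 900 bp, and in the other 2 kinds of region the populations overlap.

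Region by region, log2 extent was compared with limma over the 38482 regions open in these 4 libraries. At the set HF exceeded touch dome by a median of 0.45 (interquartile range 0.21 to 0.73), with 2740 of the 3045 differences (90.0%) above 0, against 55.7% of all regions compared and 51.7% of those open everywhere. In 1981 regions (65.1%) both HF libraries were above both touch dome libraries, against 25.3% of all regions, and the opposite order held in 111 (3.65%), against 26.0%. At an adjusted threshold of 0.05 (limma, Benjamini-Hochberg over all 38482), 121 regions of the set (3.97%) were wider in HF, against 0.673% of all regions, and 1 was wider in touch dome, against 0.904%. At an unadjusted limma p under 0.05 the counts were 1412 and 49, against 4393 and 3594 of all 38482 regions. Regions with peaks in the 4 libraries and in 1 IFE library, just outside the set, stood at a median of 0.35. Whether requiring that IFE has no peak itself favours narrow touch dome peaks was not tested. The number called toward HF was 0 without touch dome replicate 1, 0 without touch dome replicate 2 and 69 without HF replicate 1 (1191, 1734 and 1026 at an unadjusted p under 0.05). With 1 library left out, its population has a single library, and the spread is estimated from the other population alone. The number was also 0 when libraries were not centred (980 at an unadjusted p under 0.05).

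**Figure D5:**
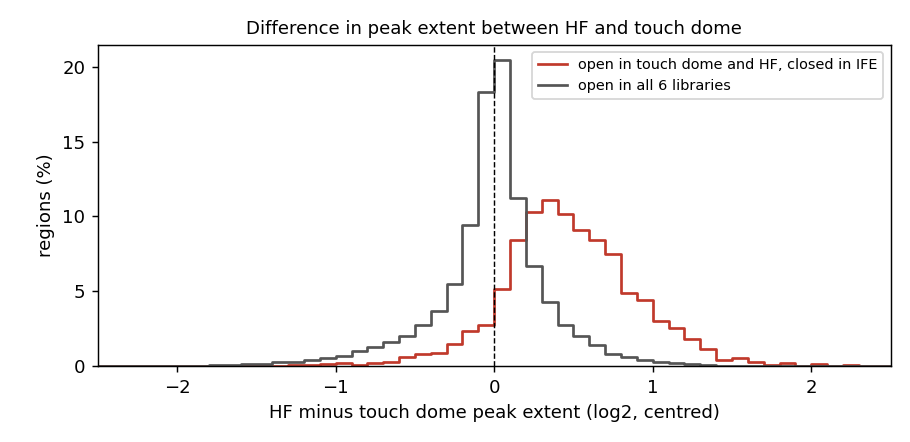
Distribution of the HF minus touch dome difference in log2 peak extent (horizontal axis) as a percentage of regions (vertical axis) for the set and for regions open in all 6 libraries. The distribution of the set is displaced to the right, with a median of 0.45, and that of the regions open in all libraries is centred near 0.

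Of the 11 regions of the set at Hedgehog genes 1 passed toward HF, at Hhip, and of the 11 at BMP and TGF-beta genes 1 passed, at Sostdc1, beside 3.97% of the whole set. At Hhip, chr8:80006701-80008084 inside the gene, peaks covered 352 and 420 bp in touch dome and 1384 and 1323 bp in HF. The HF libraries were 3.57-fold wider (log2 difference 1.84 ± 0.0991 SE; limma, Benjamini-Hochberg adjusted p = 0.0435). The other Hhip region, chr8:79943746-79944802, covered 561 and 705 bp in touch dome and 1047 and 1015 bp in HF and did not pass (limma, Benjamini-Hochberg adjusted p = 0.0596). At Postn, chr3:54391206-54393066, 164 bp past the gene's end, touch dome covered 408 and 530 bp and HF 1861 and 1758 bp, a 3.95-fold difference (limma, Benjamini-Hochberg adjusted p = 0.0435). At Sostdc1, chr12:36343526-36344965, touch dome covered 690 and 675 bp and HF 1411 and 1440 bp (2.12-fold, limma, Benjamini-Hochberg adjusted p = 0.0453). In each of these the 2 populations did not overlap and the replicates were close. With the libraries not centred, or without either touch dome library, none of the calls held. The difference on the log2 scale then stayed at 1.79 to 1.88 at Hhip and 1.87 to 2.09 at Postn.

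Pcolce2, an enhancer of procollagen processing, passed with a region that holds its annotated start. The start lies outside the stretch covered by peaks of all 4 libraries, which takes in the whole extent of touch dome replicate 1. Peaks at this region, chr9:95637558-95639503, covered 353 and 372 bp in touch dome and 1898 and 1570 bp in HF (4.84-fold, limma, Benjamini-Hochberg adjusted p = 0.0435). The widest relative difference among the 10 genes with the lowest p was at the homeobox gene Dmbx1, with 371 and 331 bp in touch dome and 1898 and 1677 bp in HF (5.17-fold). Zbtb16, a zinc finger repressor gene, had 453 and 440 bp in touch dome and 1527 and 1443 bp in HF (3.37-fold). Ldlrad3, a receptor gene of the LDL receptor family, had 394 and 430 bp in touch dome and 1655 and 1665 bp in HF (4.09-fold). Mpdz, Ttc27, Lypd6b and Glyatl3 followed, with 2.51 to 3.03-fold differences. In the follicle stem cell list, 5 of its 36 regions passed toward HF and 35 had differences above 0 (median 0.63). Over the whole set 3.97% passed and 90.0% were above 0, with a median of 0.45. They included 1 of 3 Nfib regions, chr4:82372567-82373384, with 371 and 372 bp in touch dome and 816 and 733 bp in HF, and both regions of Barx2.

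At the touch dome list 2 of 16 regions passed (Hhip and Sostdc1) and all 16 had differences above 0 (median 0.51), against 3.97%, 90.0% and 0.45 for the whole set. Of the 10 genes on this list, 7 are also on other lists. The Hhip region is the one counted under Hedgehog genes, and the Sostdc1 region is also counted under BMP and TGF-beta genes and the follicle stem cell list. None of the 5 Tnc regions passed, with log2 differences of 0.32 to 0.79, and none of the 6 at Cadm1, with 0.14 to 0.73. Melanocyte genes stood lowest among lists with 5 or more regions of the set, with 8 of 8 above 0 and a median of 0.20. Atp8a2 had 3 of its 9 regions wider in HF and covered the range from -0.08 to 2.03. At chr14:59942151-59944000 it had 387 and 370 bp in touch dome and 1809 and 1290 bp in HF, and at chr14:59714923-59716523 it had 1455 and 1572 bp in touch dome and 1483 and 1332 bp in HF. Regions of 1 gene thus differed among themselves by more than the replicates of a population did. The single region wider in touch dome was at Astn2, a neuronal membrane protein gene, at chr4:65515887-65517024. It covered 1013 and 1138 bp in touch dome and 542 and 542 bp in HF (log2 difference -0.97 ± 0.0958 SE, limma, Benjamini-Hochberg adjusted p = 0.0446). This call was lost without centring (limma, Benjamini-Hochberg adjusted p = 0.0924) and with any of the 4 libraries left out, in turn touch dome replicates 1 and 2 and HF replicates 1 and 2 (limma, Benjamini-Hochberg adjusted p = 0.165, 0.0840, 0.0746 and 0.0652). Over the set, 8 regions were wider in touch dome with the replicate number as a block, against 704 of all 38482 regions (1.83%).

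At the set, touch dome peaks lay mostly inside HF peaks. Of the bases in peaks of touch dome replicate 1, 96.9% were also in peaks of HF replicate 1, while 60.6% of the HF bases were in touch dome peaks. For touch dome replicate 2 with HF replicate 2 these shares were 92.5% and 80.8%. At regions open in all 6 libraries they were 91.1% and 85.8% for the first pair and 85.6% and 94.0% for the second. By the Jaccard index, the shared length over the joint length, the 2 HF libraries scored 0.850 and the 2 touch dome libraries 0.698. Touch dome replicate 2 scored 0.739 and 0.759 with the HF libraries, higher than with its own replicate, and touch dome replicate 1 scored 0.595 and 0.622. At regions open in all 6 libraries the 2 touch dome libraries scored 0.836, above each of their 4 pairs with HF (0.791 to 0.818). A stretch covered by all 4 libraries was present in 3039 of the 3045 regions, with a median length of 507 bp (interquartile range 381 to 700, longest 2650). In 2971 regions each of the 4 libraries had a single peak.

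The promoters touched by the set gave a small sample of its sequence. In all, 94 windows of 300 bp (250 before and 50 after a start) at 85 genes were touched, 41 of them protein-coding and 44 other genes. Their median GC content was 52.4%, as in all 32851 windows of the RefSeq table. Both strands were searched for the letters of each motif, and no motif's letters contain those of another. The AP-1 motif (TGANTCA), bound by Fos and Jun proteins, was in 18 windows (19.1%) against 7.81% of all windows. The share was 27.1% of 48 windows at genes that code for no protein, against 9.31% of all such windows, and 10.9% of 46 at coding genes, against 6.99%. Some of these windows overlap, since a gene can have several starts and 2 genes can share a region, so single matches are counted more than once: the 18 windows lay at 15 genes and in 13 of the 81 regions with a window. The coding genes with a match were Ror2, Igfbp2, Mme and Plaat1. The LHX motif (TAATTA) was in 9.57% against 5.29%, and AP-2 (GCCNNNGGC) in 19.1% against 16.6%.

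Other motifs were as frequent as in all windows or less so. RUNX (TGTGGT) was in 14.9% of the touched windows against 16.8%, SOX (ACAAAG) in 18.1% against 18.7%, TEAD (ACATTCC) in 3.19% against 3.85% and TCF/LEF (ATCAAAG) in 3.19% against 3.73%. The letters AGATAA, for GATA factors, were in 4.26% against 11.2%, the E-box (CAGATG) in 12.8% against 17.2% and GRHL (AACCNGTT) in 1.06% against 2.09%. The ETS motif (CCGGAAGT) was in none against 3.89%, and the GLI (TGGGTGGTC), palindromic NFI and CTCF motifs were in none against 0.253%, 0.0365% and 0.0122%. A match describes letters and is not a measured binding site. The great majority of the set lies outside these windows, and its sequence was not analysed here.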

How the data were processed

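Accessible chromatin was measured by ATAC-seq in 6 libraries, 2 each of touch dome, IFE and HF cells, and groups came from the labels. The submitters' processing notes name MACS2 2.2.7.1, SAMtools 1.9, Bowtie2 2.4.5 and Trim Galore 0.6.7, on mm10. Not given in the sources used here are their settings, any read shift for the transposase and how peaks were thresholded. Each library's deposited list holds peak coordinates and names in 4 columns, with no score or count, so depth is unknown and a deeper library can gain weak peaks.

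Peaks overlapping by 1 bp or more were merged. Regions were given to the nearest of 21896 RefSeq protein-coding spans (GRCm38.p6, strand not given) within 50 kb. Positions within a gene, exonic or intronic, were not analysed here. Shares carry exact 95% binomial intervals. Peak extent, the bases of a region covered by a library's peaks, was compared as log2 with limma 3.58.1 in R 4.3.3, centred per library on the median of regions open in all 6 libraries, with empirical Bayes and Benjamini-Hochberg adjustment. Merging was tested on simulated peaks, with 0 of 1740 library states wrong. When 3045 of 38482 simulated regions differed, limma called 25.1%, 58.1% and 83.2% of those with log2 differences of 0.5, 1.0 and 2.0 and 0.251% of unchanged ones. When only 200 differed, it called 0%, 43.9% and 68.2% of those with differences of 1.0, 2.0 and 3.0. The members and the 22 gene lists were chosen with earlier results of these data known. Genes named were the 25 with the most regions of the set, up to 4 per list, the sort markers, up to 15 with a region at their promoter or end, and up to 10 each way by extent. Other list genes were named after their counts were seen, and 1 list gene is counted but not reported here by name. Without a genome, sequences and motifs came from RefSeq promoter windows alone. Alternatives covered overlap, merging, peak choice, windows, centring, a replicate block and leaving out each library.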

Additional observations from a re-analysis of the deposited data

How the results depend on the processing

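Of 37 alternative values for the main counts and differences, 9 moved and 28 did not. Counts had to stay within a fixed fold limit and shares within their interval, while median differences passed whenever they stayed above 0. Most are counts, which have no direction to reverse. Of 516 for single lists and regions, 52 moved and 35 no longer passed the threshold. The number of regions was 3045 and became 1146 with the wider 50% of peaks, which overlapped 15% of the set. Equal numbers of the widest peaks gave 2691 regions, overlapping 84.7% of it. Counting a library as open only where its peaks cover at least 50% of the region gave 2701 regions, overlapping 63.0% of the set. Leaving out 1 library gave 3150 to 5722 regions and 1499 to 2422 genes with a region, the highest without touch dome replicate 1. Leaving out a library loosens the rule and adds regions by construction. The share within 2 kb of a gene end was 4.96%, a wider window. The 121 regions wider in HF became 0 without centring and 131 with quantile normalisation, and leaving out 1 library gave 0 to 107. The cause was not tested.

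The replicate numbers of touch dome and HF could be taken as a block, but the deviations of touch dome replicate 1 and HF replicate 1 correlated at only 0.0397 over regions, so they were treated as sharing only a number. With the replicate block, 268 regions of the set were wider in HF, against 567 of all 38482 regions (1.47%). The median difference stayed at 0.543 (exact permutation p = 0.50, the smallest with 2 pairs). That difference ranged from 0.411 to 0.674 when 1 library was left out.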

Other observations

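Several microRNA genes lay within 2 kb of a region of the set. The same count was not made over all regions, so whether the set has more of them than other regions is not known. The hairpin of Mir3080 overlapped a region at chr15:82958433-82959334, where peaks covered 436 and 365 bp in touch dome and 902 and 800 bp in HF. Mir6346 lay 259 bp from the Gli2 region with the longest shared stretch. Mir135b lay 1216 bp from a region with 953 and 1734 bp in touch dome and 1684 and 1021 bp in HF. Mir330, Mir3547 and Mir6407 lay 492, 777 and 1775 bp from theirs.

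By chromosome, the set made up 6.51% of the regions of chromosome 14 and 5.16% of those of chromosome 1, against 4.02% of all regions. The shares were 2.47% on chromosome 19 and 2.33% on the X chromosome. Chromosome 14 carries Atp8a2, Lrmda and Kcnma1, which hold 9, 7 and 6 of its 188 regions of the set. The part of these genes in its share was not tested.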
